A study of Mus musculus with 10 samples.

Results

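The miRNAs described here are mmu-miR-192-5p, mmu-miR-194-5p and mmu-miR-215-5p (mmu for mouse, left out below), the main products of a pair of small miRNA clusters that have been linked to extracellular matrix and to TGF-beta signalling. They were chosen by name, with earlier results of these data known, and are 3 of the 1340 mature miRNAs in the deposited table. Small RNA was sequenced from the layers behind the neural retina, that is the retinal pigment epithelium (RPE), the vascular choroid and the fibrous sclera. The mice were wild type C57BL/6J, taken at postnatal day 34. Every animal had a goggle with a -20 dioptre lens on 1 eye for 10 days from postnatal day 24, a treatment that makes young eyes grow toward myopia, and its other eye had none. The labels give the side of each of the 10 eyes, 5 right and 5 left, and a number (61, 64, 65, 66 or 68) shared by a right and a left library. They do not name the lens eye. The comparison made here is therefore right eye against left eye, in which a lens effect can cancel out if the goggled side varied. A shared number is taken here to mean a shared animal, and nothing in the labels says whether it stands for more. Where right and left are compared within a number, p-values measure the spread of those differences among these libraries.

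A miRNA represses mRNAs that carry a match to its seed, bases 2 to 8 from its 5′ end, so miRNAs with one seed share most of their predicted targets. miR-192 and miR-215 have a common seed, while miR-194 is made from the same precursor transcripts with another seed. They are best known as epithelial miRNAs of gut, liver and kidney. In human cells p53 induces them and miR-192 and miR-215 slow the cell cycle. In mouse kidney mesangial cells TGF-beta induces miR-192, which represses Zeb2, a repressor of collagen genes.

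The mature sequences are shown because they decide which of these miRNAs share targets and which could share reads. They come from RefSeq on build GRCm38.p6, 5′ to 3′ with the seed in capitals, and all 3 members matched by name.
miR-192-5p: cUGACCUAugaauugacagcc
miR-215-5p: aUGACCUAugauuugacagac
miR-194-5p: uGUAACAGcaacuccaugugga
miR-192-5p and miR-215-5p have the seed UGACCUA and agree at 18 of 21 positions. With positions counted from 1 at the 5′ end and the miR-192-5p base first, they differ by C1A, A12U and C20A, none of them in the seed. No other mature miRNA in the RefSeq table has this seed, and none shares GUAACAG with miR-194-5p.

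The genome holds 2 clusters. On chromosome 19, Mir194-2 (chr19:6264643-6264728) and Mir192 (chr19:6264844-6264932) lie on the plus strand with 115 bases between the hairpins. In GENCODE M21 they are inside no other annotated gene, and the nearest is Atg2a, 2307 bases from Mir194-2. On chromosome 1, Mir194-1 (chr1:185313319-185313385) and Mir215 (chr1:185313581-185313692) lie on the plus strand with 195 bases between them. There Mir194-1 is in an intron and Mir215 in an exon of the noncoding transcript 2010103J01Rik, and both are on the strand opposite to an intron of Iars2. Mature miR-192-5p is at chr19:6264857-6264877 and miR-215-5p at chr1:185313610-185313630. The hairpins of miR-194 are shown because their 5p arm, in capitals, is the same.
Mir194-1: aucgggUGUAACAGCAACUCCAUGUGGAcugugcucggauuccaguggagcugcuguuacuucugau
Mir194-2: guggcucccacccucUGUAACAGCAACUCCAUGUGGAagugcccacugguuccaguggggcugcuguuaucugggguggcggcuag
The deposited table has a single row for miR-194-5p, placed at the chromosome 1 copy. Reads of that row can come from either copy, chr1:185313325-185313346 or chr19:6264658-6264679, so the chromosome 19 and chromosome 1 clusters cannot be told apart in it.

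The values are the authors' normalised signal, not reads. Library sums lie between 11878152 and 11879036, and at 132 of the top 134 ranks the 10 libraries differ by under 1% of their mean. A miRNA's signal is then close to a code for its rank in the library. For miR-192-5p it was exactly that, since the libraries had one common value at each rank it took, and its 10 libraries held 7 distinct values. The libraries differed by at most 1.41% at the ranks of miR-194-5p and 4.89% at those of miR-215-5p. Depth is unknown, so no counting interval is given. The RPE marker miR-204-5p ranked first in all 10 libraries at a signal of 1931810. No marker of the 8 cell type lists was at 0 in any library, and right eye 68 stood apart with a retina and neuron sum of 1330 k (k for 1000 units of signal), where the other 9 libraries had 189 to 473.5 k. In such bulk tissue, fewer cells of a type and less RNA per cell cannot be told apart.

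The order of the 3 miRNAs was the same in every library. miR-192-5p was highest at 9931 ± 2239 (SD over 10 libraries), miR-194-5p followed at 717 ± 84.3 and miR-215-5p was lowest at 51.8 ± 8.83. The ranges did not touch, since the lowest miR-192-5p value was 7383 against a highest miR-194-5p value of 814, and the lowest miR-194-5p value was 622 against a highest miR-215-5p value of 72.9. By mean signal they ranked 75th, 187th and 400th of the 1340 miRNAs. Of the signal that carries the UGACCUA seed, miR-192-5p held 99.3% to 99.6% in each library. The 3 together made up 0.068% to 0.116% of a library's signal, and miR-192-5p was 90.9% to 94.0% of that.

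In the order of all miRNAs the 3 had neighbours from which their spread does not separate them. miR-192-5p stood between miR-92b-3p at 10022 ± 4550 and the stratified epithelium miRNA miR-205-5p at 8567 ± 4904. miR-194-5p stood between miR-106b-3p at 718 ± 119.7 and miR-204-3p at 716 ± 161. miR-215-5p stood between miR-873a-5p at 52.2 ± 34.0 and miR-3076-3p at 50.97 ± 13.5. The SDs are over the 10 libraries, and each is larger than the distance between the neighbours.

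miR-192-5p had a signal of 8559, 7383, 12901, 11089 and 12901 in right eyes 61, 64, 65, 66 and 68. Left eyes of the same numbers, in that order, had 7912, 7912, 9429.85, 8559 and 12667. The sides overlapped. Both eyes of number 68 were high and both eyes of 61 and 64 were low, while in 65 and 66 the right eye lay above the left. Its rank moved between 67th and 81st.

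miR-194-5p, the product of both clusters, had 639, 649, 814, 669 and 771 in right eyes 61, 64, 65, 66 and 68. In left eyes 61, 64, 65, 66 and 68 it had 622, 755, 814, 622 and 814. The eyes of number 65 were tied at the 174th rank, which was also that of left eye 68. The sides overlapped, and no side held all the high or all the low values. In right eyes its rank moved between 174th and 191st.

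miR-215-5p, which shares the miR-192 seed, had 51.5, 42.0, 50.0, 51.5 and 47.4 in right eyes 61, 64, 65, 66 and 68. The left eyes, listed likewise, had 57.0, 41.3, 52.8, 52.1 and 72.9. Left eye 68 was the highest library, and both eyes of number 64 were the lowest. The other 9 libraries lay between 41.3 and 57.0, and its rank moved between 364th and 420th.

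**Figure D1:**
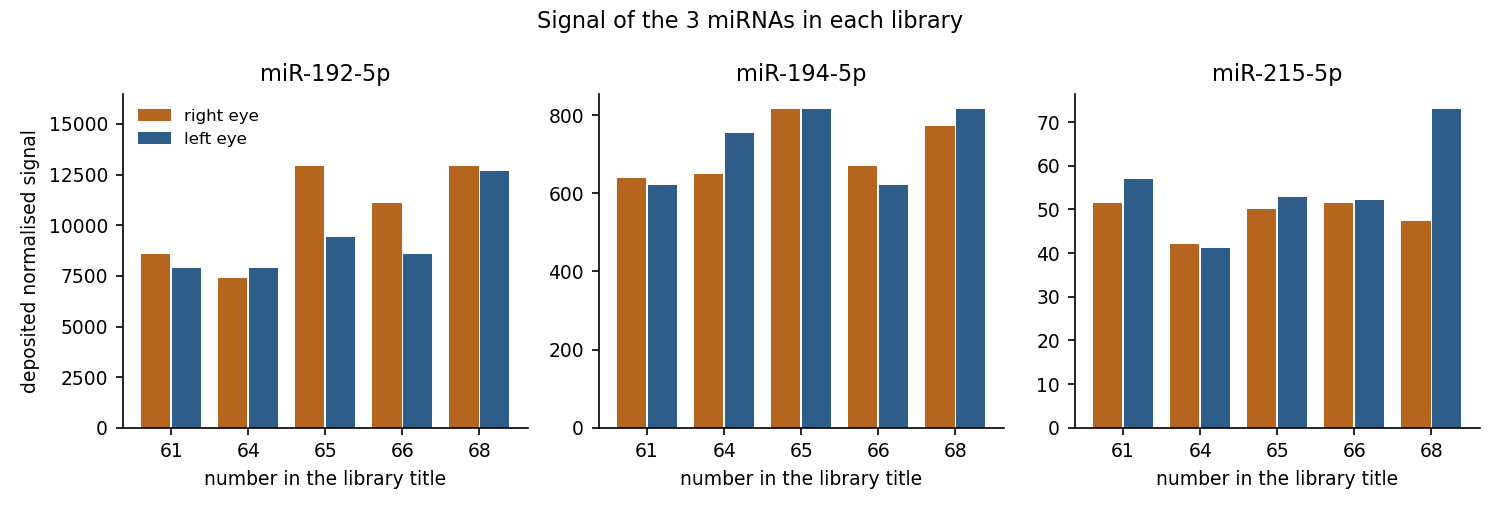
Deposited normalised signal (vertical axes, each from 0) of miR-192-5p, miR-194-5p and miR-215-5p in the right and left library of each number (horizontal axes); each bar is 1 library. miR-192-5p lies between 7383 and 12901 with both eyes of 61 and 64 low, miR-194-5p between 622 and 814, and miR-215-5p between 41.3 and 57.0 apart from left eye 68 at 72.9.

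The first comparison asked whether any of the 3 differs between right and left eyes. None passed the test. Values were taken as log2(signal + 1), a scale that understates changes of low signals, and tested in limma with the number as a block over the 588 miRNAs with a mean signal of at least 10, with Benjamini-Hochberg adjustment over all of them. In limma 0 of the 588 passed an adjusted p of 0.05 (0%), and 13 had an unadjusted p under 0.05 (2.21%), none of them a member.

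For miR-192-5p the mean signal was 10567 ± 2517 in right and 9296 ± 1985 in left eyes (SD, n = 5 each). The log2 fold change was 0.17 with SE 0.098, unadjusted p = 0.122 and adjusted p = 0.967 in limma. Its 95% interval runs from 0.96-fold to 1.32-fold. The right eye was higher in 4 of 5 numbers, as it was in at least 4 of 5 for 87 of the 588 miRNAs (14.8%). Number 64 went the other way, and without number 65 the log2 fold change was 0.10.

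For miR-194-5p the mean signal was 708 ± 79.2 in right and 726 ± 97.6 in left eyes (SD, n = 5 each), and the log2 fold change was -0.03 with SE 0.085 and adjusted p = 0.967 in limma. The right eye was higher in 2 numbers, lower in 2 and tied in 1. The sign turned to 0.02 without number 64, and the 95% interval runs from 0.85-fold to 1.13-fold.

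For miR-215-5p the mean signal was 48.5 ± 3.98 in right and 55.2 ± 11.5 in left eyes (SD, n = 5 each), and the log2 fold change was -0.16 with SE 0.149 and adjusted p = 0.967 in limma. The right eye was lower in 4 of 5 numbers, as it was in at least 4 of 5 for 78 of the 588 miRNAs (13.3%). Much of the mean difference was number 68, without which the log2 fold change was -0.05. The 95% interval runs from 0.70-fold to 1.14-fold. Differences of 2-fold in either direction thus lie outside the interval of all 3 miRNAs, although a signal that follows ranks can also hold a miRNA in place.

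**Figure D2:**
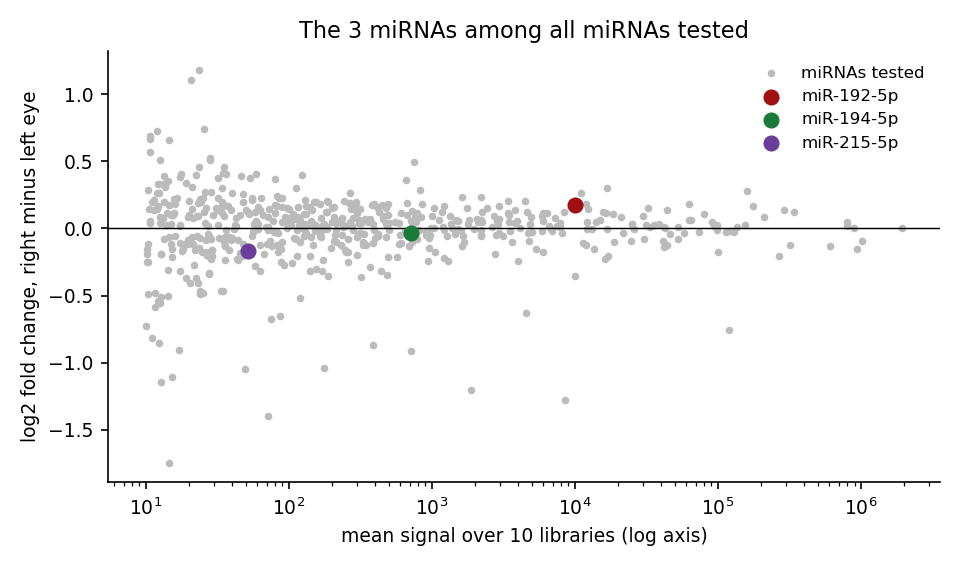
Log2 fold change of right over left eyes (vertical axis, on log2(signal + 1)) against mean signal over the 10 libraries (horizontal log axis) for the 588 miRNAs tested; each point is 1 miRNA. The 3 coloured points lie at 0.17 for miR-192-5p, -0.03 for miR-194-5p and -0.16 for miR-215-5p, inside the cloud of the other miRNAs.

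Because the side of the lens is not given, the difference between the eyes of a number was also taken without its sign. The mean absolute log2 difference was 0.21 for miR-192-5p, 0.09 for miR-194-5p and 0.17 for miR-215-5p. The same measure was smaller in 33.0%, 4.42% and 24.5% of the 588 miRNAs in that order. All 3 were thus below the middle of the 588, and miR-194-5p was among the steadiest. The 588 were not matched for signal, and a signal that follows ranks can also hold a miRNA in place. The widest gap was 1.37-fold for miR-192-5p (number 65), 1.16-fold for miR-194-5p (number 64) and 1.54-fold for miR-215-5p (number 68). The smallest was 1.02-fold, none and 1.01-fold in that order. As a description, this measure does not depend on which eye wore the lens, provided that the eyes of a number come from 1 animal.

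**Figure D3:**
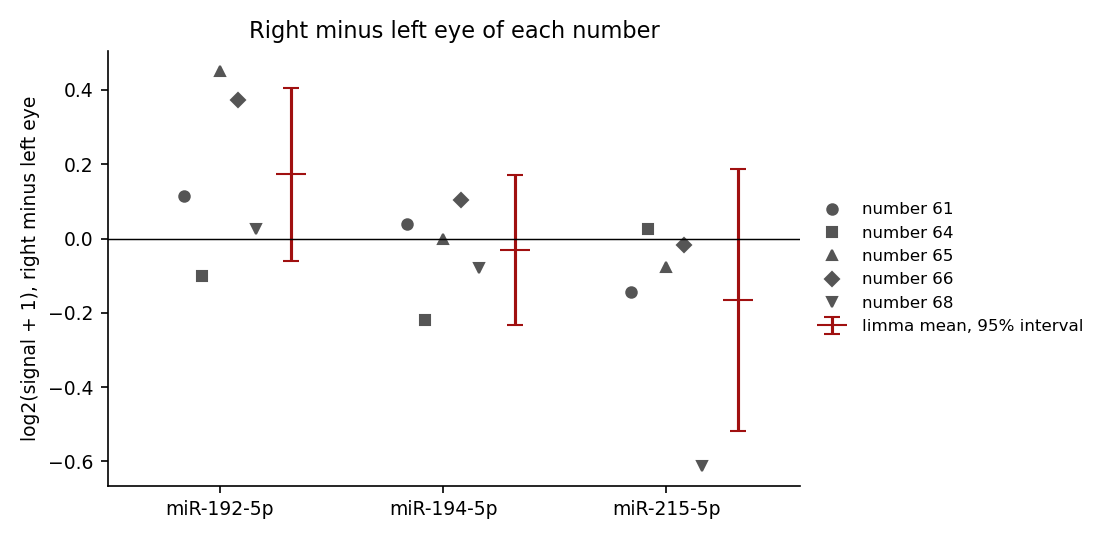
Right minus left difference in log2(signal + 1) (vertical axis) for each miRNA (horizontal axis); each grey symbol is 1 number, and the red bar is the limma mean with its 95% interval. All 3 intervals include 0, and number 68 is the low point of miR-215-5p.

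The next comparison set the members against each other within a library, first neighbours in a cluster and then miRNAs with one seed. The miR-194-5p row joins both clusters, so its ratio to miR-192-5p does not measure a single cluster. Each ratio is also one of signals that follow ranks. The ratio of miR-192-5p to miR-194-5p, each with 1 added, was higher in the right eye of all 5 numbers. It was 13.4, 11.4, 15.8, 16.6 and 16.7 in right eyes 61, 64, 65, 66 and 68. The left eyes, number by number, gave 12.7, 10.5, 11.6, 13.7 and 15.5. The sides overlapped, and the lowest ratio on each side was that of number 64 and the highest that of number 68. The mean log2 ratio was 3.87 ± 0.24 in right and 3.66 ± 0.22 in left eyes (SD, n = 5 each), a difference of 0.20. By the exact two-sided sign-flip permutation of the 5 pairs p was 0.0625, which is the smallest p that 5 pairs allow (2 of 32 sign patterns), and 0.25 after adjustment over the 4 exact tests made.

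The ratio of miR-192-5p to miR-215-5p, the pair with one seed, was higher in the right eye of 4 of 5 numbers. It was 163, 172, 253, 211 and 267 in right eyes 61, 64, 65, 66 and 68. For left eyes in that order it was 136, 187, 175, 161 and 171. Right eyes 65, 66 and 68 lay above every left eye, and number 64 was reversed. The mean log2 ratio was 7.71 ± 0.32 in right and 7.37 ± 0.17 in left eyes (SD, n = 5 each), a difference of 0.34 with exact permutation p = 0.125 and adjusted p = 0.25. Both ratios share the miR-192-5p values and are not separate results.

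The summed signal of the 3, which is mostly miR-192-5p, was 9249, 8074, 13766, 11809 and 13720 in right eyes 61, 64, 65, 66 and 68. In left eyes 61, 64, 65, 66 and 68 the sum was 8591, 8708, 10297, 9233 and 13554. The log2 difference was 0.16 (exact permutation p = 0.25, adjusted p = 0.333), higher in 4 of 5 right eyes, and 0.09 without number 65. With each of the 3 given the same weight, as the mean of their log2 signals, the difference was -0.0074. Of the cell type lists, surface epithelium, cornea and lens had a negative log2 fold change for 8 of 9 markers, with a median of -0.92, larger in size than that of any of the 3 miRNAs. None of the 9 passed in limma and 1 had an unadjusted p under 0.05, with sums of 32.9 to 214 k in right and 72.5 to 254 k in left eyes and no marker at 0. Log2 fold changes had one sign in 3 other lists, with 0 of 4 striated muscle markers positive (median -0.16), 6 of 6 leukocyte markers (0.08) and 2 of 2 endothelium markers (0.11). The endothelium markers are the arms of one hairpin, miR-126a, and the leukocyte list holds both arms of miR-142a. The surface epithelium list holds the related miR-200a-3p, miR-200b-3p, miR-200c-3p, miR-141-3p and miR-429-3p. Markers within a list are therefore not all separate. Over all 588 miRNAs tested, 54.3% had a positive log2 fold change and 2.21% an unadjusted p under 0.05 in limma. The part of these lists in the ratios was not tested.

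**Figure D4:**
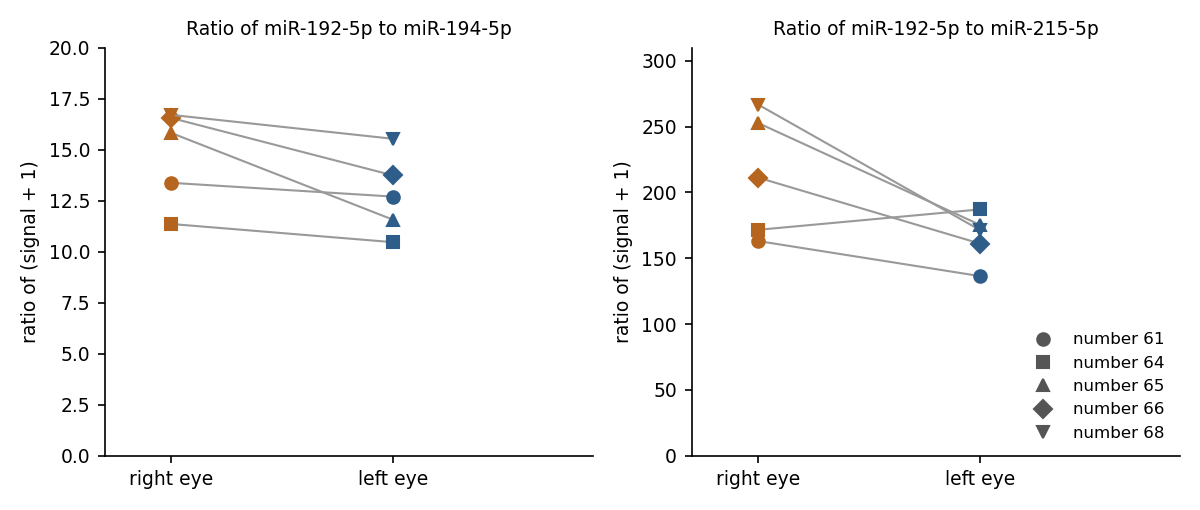
Ratio of miR-192-5p to miR-194-5p (left panel) and to miR-215-5p (right panel), each signal with 1 added (vertical axes from 0), in right and left eyes; each symbol is 1 library and lines join the eyes of a number. The first ratio slopes down from right to left eye in all 5 numbers, between 10.5 and 16.7, and the second in 4 of 5, between 136 and 267.

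The other arms of the hairpins had low signals, and those of Mir192 and Mir215 lay below their 5p arms in every library. Among the 1340 miRNAs, miR-194-2-3p ranked between 595th and 815th, miR-192-3p between 632nd and 1071st and miR-215-3p between 822nd and 1106th. For miR-194 the 5p row joins both copies, so the 5p signal of Mir194-2 alone is not known.
miR-192-3p: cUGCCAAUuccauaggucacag
miR-194-2-3p: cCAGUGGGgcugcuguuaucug
miR-215-3p: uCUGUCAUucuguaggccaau
These are printed, again with the seed in capitals, because their seeds differ from those of the 5p arms. The 3p arm of Mir194-1, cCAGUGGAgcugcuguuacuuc, differs from miR-194-2-3p by G8A in its seed and by U19C, C20U and G22C after it (positions from 1 at the 5′ end, miR-194-2-3p base first). It could tell the copies of miR-194 apart but has no row under that name in the deposited table. miR-192-3p had a signal of 0 to 5.34 in right and 0.480 to 5.70 in left eyes. miR-215-3p was listed at 0 in 4 of 5 right and 3 of 5 left eyes and reached 1.42 at most.

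miR-194-2-3p, which comes from the chromosome 19 cluster alone, had 5.34, 7.50, 5.00, 6.80 and 5.95 in right eyes 61, 64, 65, 66 and 68. In left eyes 61, 64, 65, 66 and 68 it had 6.06, 1.502, 8.86, 8.47 and 7.63. Left eye 64 was far below the rest. All 10 values were above 0. The log2 ratio of miR-194-5p to this arm was 6.64 ± 0.32 in right and 6.73 ± 0.86 in left eyes (SD, n = 5 each), with exact permutation p = 1 and adjusted p = 1. It was higher in 4 of 5 right eyes, and the mean difference of -0.09 turned to 0.38 without number 64. None of the 3p arms reached the mean signal of 10 that the test across miRNAs required.

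For miR-192-5p the means of the numbers lay further apart than the eyes of any number. The means of its 2 eyes spanned 1.67-fold, a distance of 5136 between the lowest and the highest number, where the largest gap within a number was 3471. For miR-194-5p the span was 1.29-fold, 184 against a largest gap of 106. For miR-215-5p it was 1.44-fold, 18.5 against a largest gap of 25.5. On the log2 scale the span was 0.49 for miR-215-5p and fell to 0.19 without number 64, while for miR-192-5p it was 0.74 and fell to 0.53 without number 68. A limma F test of the 5 numbers in the same fit, chosen after these values were seen, gave miR-192-5p an unadjusted p of 0.0110 and an adjusted p of 0.113, and without number 68 these were 0.0608 and 0.367. miR-194-5p had an adjusted p of 0.293 and miR-215-5p of 0.577 in the same limma test. Of the 588 miRNAs 7 passed this test (1.19%) and 137 had an unadjusted p under 0.05 (23.3%), so the unadjusted value of miR-192-5p is one that many miRNAs had. Over the 10 libraries the SD of log2 signal was 0.32 for miR-192-5p, 0.17 for miR-194-5p and 0.23 for miR-215-5p, against a median of 0.34 over the miRNAs tested. Whether a number also stands for a litter, a day or a sequencing run was not tested.

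Likeness was measured as Pearson's r of log2(signal + 1) over the 10 libraries, among the 586 other miRNAs with a spread above 0, and is given with no p because eyes of one number are not independent. The 3 members were not each other's nearest. miR-194-5p was 103rd in likeness to miR-192-5p, its neighbour on chromosome 19 (r = 0.67), and miR-215-5p was 171st (r = 0.43). Between miR-194-5p and miR-215-5p, neighbours on chromosome 1, r was 0.18. The miR-194-5p row joins both copies, so no r with it measures a single cluster.

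The miRNAs most like miR-192-5p were miR-98-3p (r = 0.97), miR-340-5p (0.97), the collagen-targeting miR-29b-3p (0.97), the fibroblast miRNA miR-199a-5p (0.96) and miR-29a-3p (0.95). It had 96 miRNAs with r of at least 0.7 (16.4%). For miR-194-5p the closest were miR-15a-5p (r = 0.86), miR-582-5p (0.81), miR-100-3p (0.76), miR-30d-5p (0.75) and miR-380-3p (0.73). For miR-215-5p they were miR-16-5p (r = 0.80), miR-802-3p (0.77), miR-494-3p (0.76), miR-6914-3p (0.76) and miR-369-5p (0.73). Of these, miR-16-5p hardly varied, with an SD of log2 signal of 0.043. Mean signals were low for miR-802-3p (21.1), miR-494-3p (27.5) and miR-6914-3p (17.3), and higher for miR-369-5p (933). At r of at least 0.7, miR-194-5p had 11 miRNAs (1.88%) and miR-215-5p 5 (0.853%). The 10 libraries of each r share 5 numbers and the rank-like scale.

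The miRNAs of related settings were listed by name, with earlier results of these data known. They were read in the same limma fit, where none passed between right and left eyes. Over all 588 miRNAs the median log2 fold change was 0.02 and 54.3% were positive. Of 20 other miRNAs linked to TGF-beta and fibrosis, all kept by the filter, 13 had a positive and 7 a negative log2 fold change with a median of 0.03. Their most abundant were miR-130a-3p (0.01), miR-21a-5p, induced by TGF-beta (0.03), miR-29a-3p (0.10) and miR-199a-5p (0.26), each with adjusted p of 0.967 or higher in limma. This list shares miR-200a-3p, miR-200b-3p, miR-200c-3p, miR-141-3p and miR-429-3p with the surface epithelium, cornea and lens list, and all of these were negative. It also shares miRNAs with the leukocyte list and with the fibroblast and smooth muscle list, so the lists are not separate readings. Of 10 miRNAs linked to p53, 3 were positive and 7 negative with a median of -0.07, among them miR-143-3p (0.02), miR-16-5p (-0.03), miR-145a-5p (-0.17) and miR-15a-5p (0.05). Of 11 miRNAs enriched in gut, liver or kidney, 10 were in the table and 9 kept, with 4 positive, 4 negative and miR-204-5p without any difference. Ranked first in all 10 libraries, miR-204-5p had the same value in each and could show no difference on this rank-like scale. The gut, liver and kidney list was led by miR-204-5p, miR-30a-5p (0.14), miR-378a-3p (-0.17) and miR-148a-3p (0.06), and it shares miR-204-5p with the RPE and melanocyte list. The p53 list shares miR-143-3p and miR-145a-5p with the fibroblast and smooth muscle list. Between numbers 1 of the 20 TGF-beta and fibrosis miRNAs passed the limma F test, beside 7 of all 588 (1.19%), and 0 of the other 2 lists. It was miR-29c-3p (adjusted p = 0.0430), named after its value was seen. No miRNA passed that test without the mean-variance trend or without number 61, 64 or 68.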

How the data were processed

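The authors deposited a normalised signal for each mature miRNA in the 10 libraries. Bowtie, Partek and the mouse build GRCm38 (mm10) are named, per the submitters' processing notes, without versions. Their way of normalising is not stated in the sources read. Libraries were made from the small RNA fraction with the TruSeq small RNA kit, per the labels' protocols. Only 7.31% of values above 0 are whole numbers within 0.001, so count models were not used. The extract protocol speaks of retinae, and the tissue label was followed. Values were analysed as log2(signal + 1) for 588 miRNAs with a mean of at least 10, which hold 99.988% of the signal. Right and left eyes were compared in R 4.3.3 by limma 3.58.1, using its mean-variance trend and the title number as a block, since the protocol sets each treated eye against the contralateral one. Tests were two-sided with Benjamini-Hochberg adjustment at 0.05. Ratios and the sum were tested by exact sign-flip permutation of the 5 pairs. The limma fit was checked on simulated data and the exact tests on values with known answers. The named miRNAs are the members, the other arms of their hairpins, miRNAs with their seed, neighbours in mean signal, the 5 most alike for each member and up to 4 of each list. miR-29c-3p was added after its value was seen. The members and lists were chosen with earlier results of these data known. The alternatives tried were other pseudocounts, other filters, no block, no trend, within-library ranks and leaving out each number.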

Additional observations from a re-analysis of the deposited data

Results flagged for a closer look

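In 3 of 20 checks on groups of 5 libraries, 1 eye stood far off the remaining 4 eyes of the side. Chance flags about 1 in 20 such groups where values are independent and vary, but these checks share values and some groups are mostly at 0, which makes that rate no yardstick here. miR-194-2-3p in left eye 64 stood apart at 1.32 on the log2(signal + 1) scale, and the log2 ratio of miR-194-5p to this arm in the same eye at 8.24. miR-215-3p in right eye 61 stood apart at 0.57 on the log2(signal + 1) scale, where the other 4 right eyes are all listed at 0, so that any value above 0 would have stood apart.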

How the results depend on the processing

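In right against left eyes, 0 miRNAs passed under every alternative run, the within-library ranks and each number left out included. With no replicate block the adjusted p in limma was 0.997 for each of the 3 miRNAs, and the exact permutation p over the 10 libraries was 0.190 for the ratio of miR-192-5p to miR-194-5p and 0.0873 for that to miR-215-5p. The support for the pairing by number is limited, since 3 of 5 numbers had a correlation of the deviations of their eyes above 0.1 and 2 of 5 left eyes were most like their own right eye. With each number left out the log2 fold change ran from 0.10 to 0.24 for miR-192-5p, from -0.064 to 0.016 for miR-194-5p and from -0.21 to -0.05 for miR-215-5p, and the difference of the sum from 0.09 to 0.22. The difference of the log2 ratio ran from 0.14 to 0.24 against miR-194-5p, from 0.26 to 0.45 against miR-215-5p and from -0.29 to 0.38 for miR-194-5p against miR-194-2-3p. Equal weights turned the difference of the sum to -0.0074. The count of miRNAs that differ between numbers was 7, but 23 with a filter at 100, 0 without the trend, 12 on ranks and 0 to 22 with a number left out, and the cause was not tested. The log2 span of the numbers then ran from 0.53 to 0.74 for miR-192-5p, from 0.33 to 0.37 for miR-194-5p and from 0.19 to 0.49 for miR-215-5p. No member passed in any of these. With the filter at 100 miR-215-5p was not tested. Unknown depth limits what the low 3p arms can show.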
